A study of Mus musculus with 6 samples.

Results

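Among 10 genes of the PARP family, *Parp14* and *Parp8* were higher in *Tim-4* knockout than in control peritoneal macrophages beyond the spread between libraries. The DNA-repair genes *Parp1* and *Parp2* did not pass the test in either direction. Of the 6 interferon-induced genes only *Parp14* passed. *Parp3*, which also serves in DNA repair but is not among the 10, was higher too. The calls of *Parp14*, *Parp8* and *Parp3* did not hold in the fits without knockout library 1, knockout library 2 or control library 2. The 10 genes were *Parp1*, *Parp2*, *Parp8*, *Parp9*, *Parp10*, *Parp11*, *Parp12*, *Parp14*, *Tiparp* and *Dtx3l*. They were taken by symbol from the 15415 genes of the expression table, whatever their values, and all 10 were found and tested. *Dtx3l* is not itself a PARP gene; it encodes the ubiquitin ligase that binds PARP9.

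Poly(ADP-ribose) polymerases (PARPs) take ADP-ribose from NAD and attach it to proteins. PARP1 and PARP2 bind DNA breaks and build ADP-ribose chains that recruit repair factors, whereas most other members attach single ADP-ribose units. PARP9 with its partner DTX3L, PARP10, PARP11, PARP12 and PARP14 are known as products of interferon-induced genes, and macrophages stimulated with lipopolysaccharide (LPS), a component of bacterial cell walls, release interferon that acts back on them.

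RNA was sequenced from peritoneal macrophages (PEMs) in 3 knockout and 3 control libraries. Knockout mice carried LysM-Cre on a *Tim-4* fl/fl background, and control mice were *Tim-4* fl/fl without Cre. The floxed line was made in C57BL/6J, and the study's methods describe male mice of 6 to 8 weeks whose PEMs were drawn 3 days after a peritoneal injection of 6% starch. All 6 libraries are labelled as LPS-treated; the methods activate cells with 1 microgram per ml LPS for 3.5 h but do not state that these libraries had that protocol, and there is no unstimulated group. LysM-Cre is expressed from the *Lyz2* locus in macrophages, monocytes and neutrophils, so the deletion is not limited to PEMs, and the labels do not say whether each library came from its own mouse; the p-values measure the spread between these libraries, which may be technical in part.

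The libraries held 36170767 to 42217558 reads on listed genes. The genotype entries of the labels run against the titles, since they call the CKO libraries wild type and the Control libraries knockout. *Timd4*, the gene for Tim-4, had 0.333, 0.394 and 0.246 FPKM (fragments per kilobase of gene, scaled to the reads of the library) in knockout libraries 1, 2 and 3 and 19.5, 12.05 and 1.19 FPKM in control libraries 1, 2 and 3, so its levels go with the titles, which were used here. The log2 difference of *Timd4* was -2.66 (adjusted p = 0.0715, limma; 0.0436 with the replicate number as a block and 0.000405 without control library 3). With a pseudocount of 0.1 in place of 1 it was -4.005 (adjusted p = 0.0458), and with voom on the recovered reads -4.20 (adjusted p = 0.216). Control library 3 stood apart with the lowest control level. In knockout libraries 1, 2 and 3 *Lyz2* had 41.4, 4656 and 106.0 FPKM, against 7090 to 8482 FPKM in the controls, so knockout library 2 stood apart from the other two. Macrophage markers (*Adgre1*, *Csf1r*, *Cd68*, *Itgam*, *Mertk*) summed to 2244 to 2434 FPKM in the knockout and 1634 to 2175 FPKM in the control libraries, so the labelled cell type was present in all 6. The higher knockout sum came from *Cd68* (mean 1642 against 1091 FPKM), while *Csf1r* (105.1 against 168.4 FPKM), *Adgre1* (278.6 against 321.8 FPKM) and *Itgam* (293.6 against 349.3 FPKM) were lower on average; none of the 5 passed the test.

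The promoter windows that follow are shown because interferon-induced genes carry short response elements near their start sites, and because *Tiparp* is a known target of the aryl hydrocarbon receptor. RefSeq windows of 300 bases on GRCm38.p6, from 250 bases before to 50 bases after a start site, were at hand for 7 of the 10 genes; *Parp9*, *Parp10* and *Parp14* had none. Each sequence runs 5′ to 3′ on the strand of its gene. In *Parp11*, capitals mark a pair of TTTC half-sites set 2 bases apart, the core of an interferon-stimulated response element. In *Tiparp* they mark the dioxin response core CACGC, sought on both strands, to which the aryl hydrocarbon receptor binds. *Dtx3l* is shown as an interferon-induced gene and *Parp1* as a DNA-repair gene, both without the TTTC pair.

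Parp11 (chr6:127446590-127446889, plus strand): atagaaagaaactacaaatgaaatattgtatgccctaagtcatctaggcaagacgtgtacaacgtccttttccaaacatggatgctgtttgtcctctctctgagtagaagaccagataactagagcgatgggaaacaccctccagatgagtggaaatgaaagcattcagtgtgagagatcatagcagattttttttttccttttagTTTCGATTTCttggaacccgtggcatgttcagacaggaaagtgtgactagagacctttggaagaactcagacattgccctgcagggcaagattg
Dtx3l (chr16:35938978-35939277, minus strand): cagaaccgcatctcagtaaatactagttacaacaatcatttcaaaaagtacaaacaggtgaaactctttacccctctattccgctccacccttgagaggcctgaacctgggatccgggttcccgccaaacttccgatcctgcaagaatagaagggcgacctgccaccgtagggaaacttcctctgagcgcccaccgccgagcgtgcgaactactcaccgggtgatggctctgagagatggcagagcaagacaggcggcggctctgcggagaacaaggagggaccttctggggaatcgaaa
Parp1 (chr1:180568641-180568940, plus strand): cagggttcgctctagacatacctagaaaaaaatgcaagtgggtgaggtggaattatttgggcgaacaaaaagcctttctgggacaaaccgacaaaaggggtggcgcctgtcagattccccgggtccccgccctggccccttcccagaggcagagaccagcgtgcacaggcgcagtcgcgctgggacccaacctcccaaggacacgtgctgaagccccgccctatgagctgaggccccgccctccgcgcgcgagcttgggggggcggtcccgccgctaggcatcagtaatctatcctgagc
Tiparp (chr3:65528197-65528496, plus strand): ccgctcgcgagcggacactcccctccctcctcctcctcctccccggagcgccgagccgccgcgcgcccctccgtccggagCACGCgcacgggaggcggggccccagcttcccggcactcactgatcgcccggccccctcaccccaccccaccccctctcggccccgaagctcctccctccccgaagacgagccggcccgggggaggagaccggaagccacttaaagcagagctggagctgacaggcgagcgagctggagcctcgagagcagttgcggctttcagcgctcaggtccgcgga

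The TTTC pair was sought on both strands and occurred in 1131 of 32851 windows (3.44%). Among the 8 windows of the 7 genes it occurred in the upstream window of *Parp11*, at 44 to 35 bases before the start site. It overlapped there with a gamma-activated site (TTC, any 3 bases, GAA), a motif held by 2726 windows (8.30%). The second *Parp11* window and the single windows of *Dtx3l* and *Parp12* did not hold the pair, and neither did those of *Parp1*, *Parp2*, *Parp8* and *Tiparp*. The dioxin core was held by 10639 windows (32.4%), among them *Dtx3l*, *Parp1*, *Parp2*, *Parp8*, *Parp12*, *Tiparp* and the second *Parp11* window. These matches describe letters in a window and are not evidence of binding.

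The 10 genes covered a wide range of levels. By FPKM, which is per length of gene, the order of the control means was *Parp14*, *Parp12*, *Parp9*, *Dtx3l*, *Tiparp*, *Parp10*, *Parp1*, *Parp2*, *Parp11* and *Parp8*. The lowest control level of *Parp14* (175.5 FPKM) was above the highest of *Parp12* (140.2 FPKM), and *Tiparp* and *Parp10* were both far above *Parp1*. The control ranges of the neighbours from *Parp12* to *Parp10* overlapped, as did those of *Parp11* with *Parp1*, *Parp2* and *Parp8*. Within each control library, however, *Parp12* was above *Parp9* and *Parp9* above *Dtx3l*, and *Parp1* was above *Parp2* in every control. All 10 genes together took 0.506, 0.481 and 0.431% of the reads in knockout libraries 1, 2 and 3, against 0.357, 0.301 and 0.234% in the controls, and *Parp14* alone gave 53.3 to 63.7% of these reads per library. At this depth even *Parp1* had 503 to 795 reads per library, for which counting error was at most 4.46%; this exceeds the spread of its controls.

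**Figure D1:**
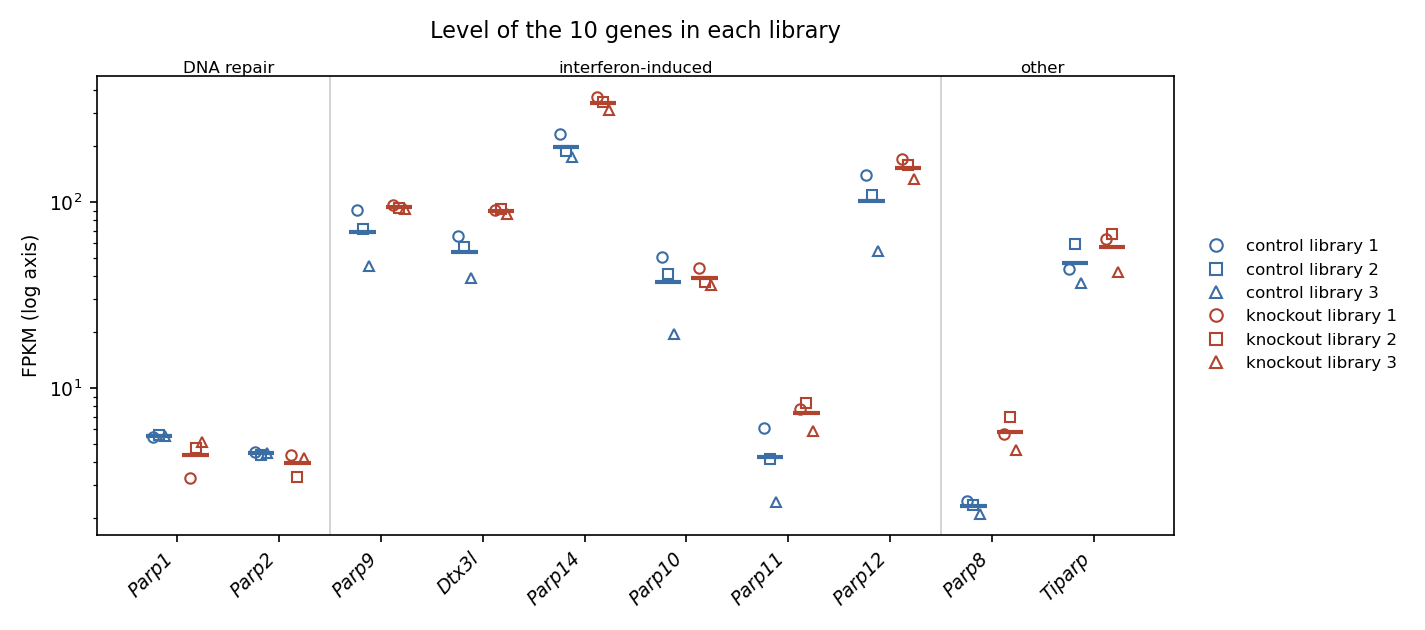
Level of each of the 10 genes in each library, in FPKM on a log axis; blue symbols are control and red symbols knockout libraries, circles, squares and triangles are libraries 1, 2 and 3, and bars are group means. The interferon-induced genes spread widely in the controls with library 3 lowest, while *Parp1* and *Parp2* were nearly level there. *Parp14*, *Parp8*, *Dtx3l* and *Parp9* show no overlap, with the knockout above, and *Parp1* shows none with the knockout below.

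Of the 10 genes, 2 were higher in the knockout and 0 lower at an adjusted p under 0.05 (limma on log2(FPKM + 1), Benjamini-Hochberg over 9030 genes tested), with 4 at an unadjusted p under 0.05, as were 2494 of all genes tested (27.6%). Over all tested genes, 660 (7.31%) were called, of which 232 (2.57% of those tested) were higher and 428 (4.74%) lower. With the replicate number as a block, 352 were higher and 503 lower, and after rescaling the libraries by the median of ratios 342 were higher and 322 lower; *Parp14* and *Parp8* were the 2 PARP genes called in both. Without knockout library 1, knockout library 2 or control library 2, 0 of the 10 genes were called in the limma fit (3 at an unadjusted p under 0.05 each time), with 30, 63 and 8 genes called over all. Without control library 1, 4 of the 10 were called, and without control library 3, 3 were. The median log2 difference of the 10 genes was 0.59, beside -0.11 for all genes tested (0.02 for all genes after rescaling). Of the 10 differences 8 were positive, beside 3297 of 9030 over all genes tested. Without control library 3 the median of the 10 was 0.25 and 7 were positive. In *Parp9*, *Dtx3l*, *Parp14* and *Parp8* every knockout library lay above every control library, as in 1006 tested genes (11.1%). In *Parp1* every knockout library lay below every control library, as in 2077 tested genes (23.0%). The genes were proposed with earlier results of these data known, so these counts are descriptions.

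The DNA-repair enzymes come first. PARP1, the most abundant family member in most cells, senses DNA strand breaks. *Parp1* was at 3.27, 4.76 and 5.13 FPKM in knockout libraries 1, 2 and 3 (4.39 ± 0.981, SD, n = 3) and at 5.47, 5.58 and 5.52 FPKM in the controls (5.53 ± 0.0552, SD, n = 3). The controls were nearly identical, and most of the gap came from knockout library 1. The log2 difference was -0.29 (SE 0.16, 95% confidence interval -0.67 to 0.09, adjusted p = 0.280, limma), which is not past the threshold, and it was -0.14 without knockout library 1 and -0.17 after rescaling. PARP2 shares the break-sensing role with PARP1. *Parp2* was at 4.38, 3.32 and 4.19 FPKM in the knockout (3.97 ± 0.565, SD, n = 3) and at 4.55, 4.37 and 4.48 FPKM in the controls (4.47 ± 0.0912, SD, n = 3). Its groups overlapped, with knockout library 2 the lowest. The log2 difference was -0.15 (SE 0.13, interval -0.45 to 0.16, adjusted p = 0.503, limma), and it was -0.05 without knockout library 2 and -0.03 after rescaling. The lowest library was thus not the same in *Parp1* and *Parp2*, and the ratio of *Parp2* to *Parp1* overlapped between groups (1.34, 0.698 and 0.818 in the knockout, 0.832, 0.783 and 0.811 in the controls).

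Among the interferon-induced genes, all 6 differences were positive, beside 3297 of 9030 over all genes tested, and 1, *Parp14*, was past the threshold. Their median log2 difference was 0.70, with a range of 0.17 to 0.79. Without control library 3, 5 of the 6 were positive, with a median of 0.37 and a range of -0.23 to 0.70. PARP14 carries macrodomains that bind ADP-ribose and takes part in interleukin-4 and interferon responses of macrophages. *Parp14* was at 368.5, 342.8 and 313.5 FPKM in knockout libraries 1, 2 and 3 (341.6 ± 27.5, SD, n = 3) and at 231.4, 188.9 and 175.5 FPKM in the controls (198.6 ± 29.2, SD, n = 3). The lowest knockout library was well above the highest control library. The mean was 1.72 times the control mean, and the log2 difference was 0.79 (SE 0.15, interval 0.44 to 1.13, adjusted p = 0.0279, limma). *Parp14* ranked at 244 of 9030 tested genes by level. Its call was lost without knockout library 1 (adjusted p = 0.127), knockout library 2 (0.129) or control library 2 (0.116), with log2 differences of 0.73, 0.78 and 0.76. Without control library 3 the difference was 0.70 and the call held (adjusted p = 0.0253).

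*Parp9* and *Dtx3l* lie next to each other in the genome, with *Parp14* as the next gene on the *Dtx3l* side, and their proteins form a complex that ADP-ribosylates and ubiquitinates proteins in the interferon and DNA damage responses. *Dtx3l* was at 90.4, 91.3 and 86.4 FPKM in the knockout (89.4 ± 2.57, SD, n = 3) and at 65.8, 57.7 and 39.2 FPKM in the controls (54.2 ± 13.7, SD, n = 3). The groups did not overlap, and the knockout libraries were close to level. The ratio of means was 1.65 and the log2 difference 0.74 (SE 0.20, interval 0.28 to 1.20, adjusted p = 0.0639, limma), just short of the threshold. It was past it without control library 1 (0.90, adjusted p = 0.0415, limma) and without control library 3 (0.53, adjusted p = 0.0343, limma).

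*Parp9* was at 96.7, 92.8 and 91.3 FPKM in the knockout (93.6 ± 2.79, SD, n = 3) and at 90.6, 71.6 and 45.4 FPKM in the controls (69.2 ± 22.7, SD, n = 3). The groups did not overlap, but control library 1 came within 1 FPKM of the lowest knockout library. The log2 difference was 0.49 (SE 0.24, interval -0.08 to 1.05, adjusted p = 0.235, limma), and it was 0.21 without control library 3 and 0.70 without control library 1. Within each library, the ratio of *Dtx3l* to *Parp9* was 0.934, 0.984 and 0.947 in the knockout and 0.727, 0.806 and 0.863 in the controls, so the partners were closer to equal in every knockout library. In the GENCODE M21 annotation the pair share 458 exon bases on opposite strands (9.40% of *Parp9*, 8.0% of *Dtx3l*), and whether counting used strand is not given in the sources used here, so part of either value may belong to the other gene. Smaller overlaps were found between *Parp10* and *Plec* (205 exon bases, 4.80% of *Parp10*, same strand), and between *Tiparp* and the pseudogene *4931440P22Rik* (223 exon bases, 5.12% of *Tiparp*, opposite strands). *Parp14* shares 110 exon bases (1.18%) with *Gm49730* on the same strand, and *Parp1* shares 7 with *Mir6904*.

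PARP10 and PARP12 are mono-ADP-ribosyltransferases with antiviral activity, and PARP11 modifies a ubiquitin ligase that acts on the interferon receptor. *Parp12* was at 169.5, 157.7 and 132.4 FPKM in the knockout (153.2 ± 18.9, SD, n = 3) and at 140.2, 109.6 and 54.6 FPKM in the controls (101.5 ± 43.4, SD, n = 3). Control library 1 was above knockout library 3, so the groups overlapped. The log2 difference was 0.69 (SE 0.33, interval -0.08 to 1.45, adjusted p = 0.220, limma), and it was 0.30 without control library 3 (adjusted p = 0.280, limma). *Parp11*, whose upstream window holds the TTTC pair, was expressed far lower, at 7.75, 8.34 and 5.87 FPKM in the knockout (7.32 ± 1.29, SD, n = 3) and at 6.14, 4.16 and 2.45 FPKM in the controls (4.25 ± 1.85, SD, n = 3). Control library 1 again exceeded knockout library 3. The ratio of means was 1.72, as in *Parp14*, but with a wider spread: the log2 difference was 0.71 (SE 0.27, interval 0.08 to 1.35, adjusted p = 0.142, limma), and it was past the threshold without control library 1 (0.97, adjusted p = 0.0481, limma) but fell short by more without control library 3 (0.44, adjusted p = 0.186, limma).

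Among the genes whose groups overlapped, the knockout was the higher in all 3 same-numbered pairs for *Parp12*, *Parp11* and *Tiparp*. For *Parp2* the knockout was the lower in all 3 pairs. For *Parp10* the knockout was the lower in pairs 1 and 2 and the higher in pair 3. The labels give no pairing, so these pairs are not known to be matched. Knockout library 2 correlated better with control library 1 (0.291) than with control library 2 (0.110). With the replicate number as a block the adjusted p was 0.102 for *Parp12*, 0.0585 for *Parp11* and 0.228 for *Tiparp* (limma), none past the threshold. For *Parp2* and *Parp10* the adjusted p with the block was 0.481 and 0.655 (limma).

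*Parp10* was the interferon-induced gene with the smallest difference. It was at 44.0, 37.2 and 36.0 FPKM in the knockout (39.1 ± 4.29, SD, n = 3) and at 50.6, 41.1 and 19.6 FPKM in the controls (37.1 ± 15.9, SD, n = 3). Both the highest and the lowest library were controls. The log2 difference was 0.17 (SE 0.32, interval -0.59 to 0.93, adjusted p = 0.765, limma), and without control library 3 it turned to -0.23 (adjusted p = 0.356, limma).

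**Figure D2:**
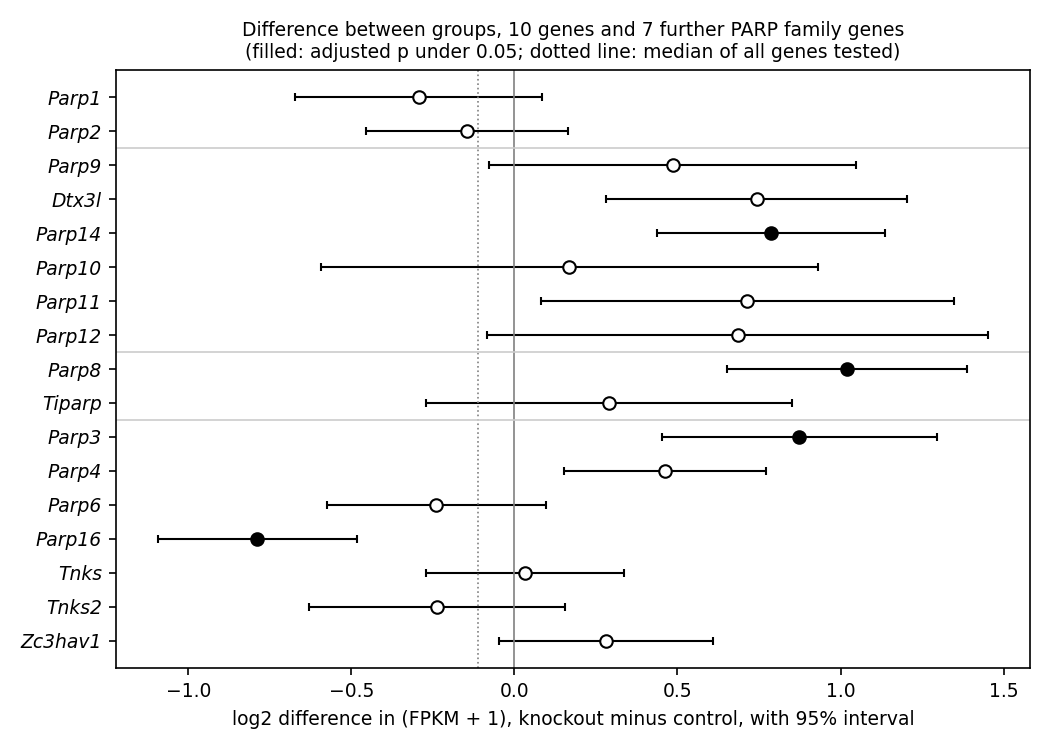
Log2(FPKM + 1) difference, knockout minus control, of the 10 genes and of 7 further PARP family genes, with 95% confidence intervals from the limma fit; filled symbols are past an adjusted p of 0.05 and the dotted line is the median of all genes tested (-0.11). *Parp14* (0.79), *Parp8* (1.02), *Parp3* (0.87) and *Parp16* (-0.79) are past the threshold. The intervals of *Dtx3l*, *Parp11* and *Parp4* lie above 0 although their adjusted p are not past it.

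The control libraries differed from each other in the same order throughout the interferon-induced genes. In 6 of 6 interferon-induced genes control library 1 was the highest control and control library 3 the lowest of all 6 libraries. *Parp8* shared both, and *Tiparp* had control library 3 lowest, so that 8 of the 10 genes had their lowest level there; over all tested genes, control library 3 was the lowest in 1198 (13.3%). The highest control was 1.32 times the lowest in *Parp14*, 1.68 times in *Dtx3l*, 1.995 times in *Parp9*, 2.51 times in *Parp11*, 2.57 times in *Parp12* and 2.59 times in *Parp10*. In all 6 this control range was wider than that of the knockout, as in 6540 of 9017 tested genes above 0 in every library (72.5%). The same order of controls held for *Stat2*, a transcription factor of the type I interferon response (51.2, 36.5 and 23.3 FPKM in control libraries 1, 2 and 3), and for *Irf7* (239.8, 159.5 and 66.3 FPKM). It held too for *Timd4* and for the summed markers of large peritoneal macrophages (155.4, 99.8 and 35.1 FPKM) and of B cells (115.4, 78.9 and 27.5 FPKM). It did not hold for mast-cell markers (37.5, 37.8 and 49.0 FPKM), mesothelial and fibroblast markers (2.06, 5.24 and 10.5 FPKM) or neutrophil markers (172.2, 159.2 and 162.5 FPKM). The part of cell composition in the level of the interferon-induced genes was not tested. *Parp1* and *Parp2* did not share this order, since their controls differed by little.

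**Figure D3:**
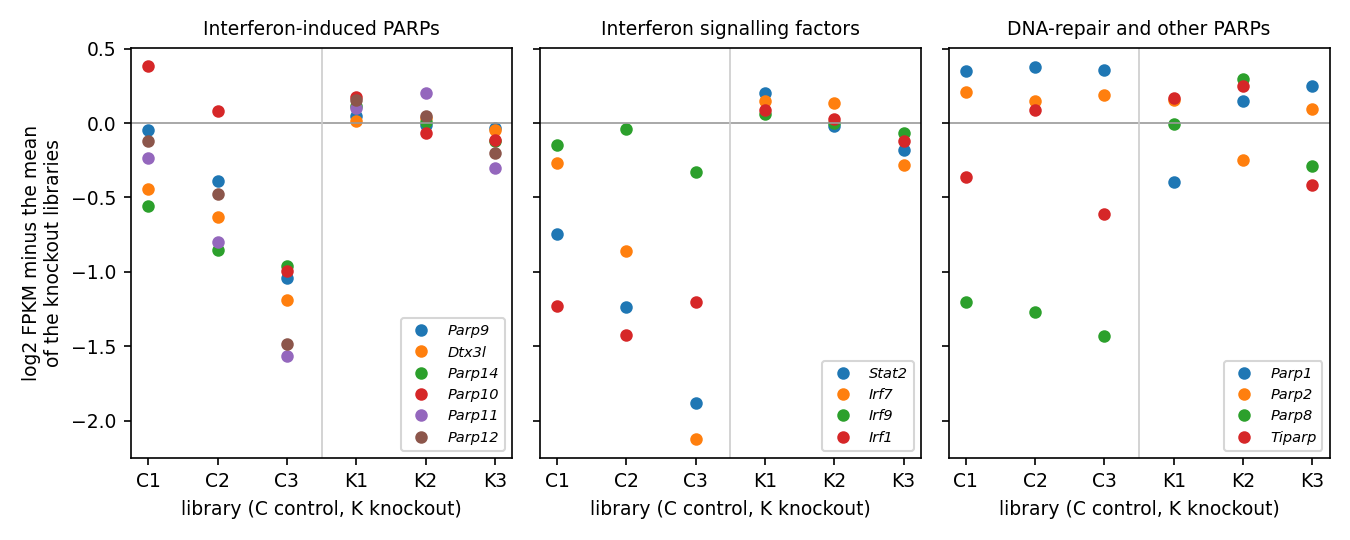
Level of each gene in each library as log2 FPKM minus the mean of the 3 knockout libraries, so that 0 is the knockout mean; C1 to C3 are control and K1 to K3 knockout libraries, and points are single libraries. The left and middle panels (the 6 interferon-induced genes; 4 interferon signalling factors) show points falling from C1 to C3 in the interferon-induced genes, *Stat2* and *Irf7*, and not in *Irf1* or *Irf9*, while the right panel shows level controls for *Parp1* and *Parp2* and controls of *Parp8* more than 1 log2 unit below the knockout mean.

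Ratios within a library do not depend on how libraries were scaled to each other. The ratio of *Parp14* to *Parp1* was 112.6, 72.0 and 61.2 in knockout libraries 1, 2 and 3 and 42.3, 33.8 and 31.8 in the controls, so even the lowest knockout ratio exceeded every control. On the log2 scale the means were 6.31 and 5.16, a difference of 1.15. The ratio to *Parp1* also lay above all controls in every knockout library for *Parp9* (log2 difference 0.85), *Dtx3l* (1.11), *Parp11* (1.23) and *Parp12* (1.05), while that of *Parp10* overlapped (0.54). The separation was narrow between knockout library 3 and control library 1, with 25.8 against 25.6 for *Parp12*, 1.14 against 1.12 for *Parp11* and 17.8 against 16.6 for *Parp9*. All 6 ratios share the *Parp1* denominator, whose own difference was negative, so their direction adds nothing to that of the single genes. These are values with no test: an exact two-sided permutation of 3 against 3 libraries has 0.1 as its smallest p.

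The other two genes are a mono-ADP-ribosyltransferase of little-known function, PARP8, and TIPARP (PARP7), which is induced by dioxin through the aryl hydrocarbon receptor and restrains that receptor. *Parp8* was at 5.68, 7.02 and 4.67 FPKM in the knockout (5.79 ± 1.18, SD, n = 3) and at 2.48, 2.37 and 2.12 FPKM in the controls (2.32 ± 0.186, SD, n = 3). The groups were far apart, the lowest knockout library being above every control. The mean was 2.50 times the control mean, and the log2(FPKM + 1) difference, which understates the change of a gene at this level, was 1.02 (SE 0.16, interval 0.65 to 1.39, adjusted p = 0.0164, limma). The ratio of *Parp8* to *Parp14* within a library was higher in every knockout than in every control library, by 0.51 on the log2 scale. Its controls followed the order of libraries 1, 2 and 3 with control library 3 the lowest of all 6, over a range of 1.17 times. The call was lost without knockout library 1 (adjusted p = 0.0799), knockout library 2 (0.0782) or control library 2 (0.0942), with log2 differences of 1.02, 0.89 and 1.03; without control library 3 it held (0.97, adjusted p = 0.0141).

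*Tiparp* was at 63.2, 67.1 and 42.2 FPKM in the knockout (57.5 ± 13.4, SD, n = 3) and at 43.9, 59.8 and 36.9 FPKM in the controls (46.8 ± 11.7, SD, n = 3). The groups overlapped, and in both library 3 was the lowest. The log2 difference was 0.29 (SE 0.24, interval -0.27 to 0.85, adjusted p = 0.463, limma), with 0.13 without control library 3, 0.17 without knockout library 2, 0.48 without control library 2 and 0.49 without knockout library 3.

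Of 6 aryl hydrocarbon receptor genes, 5 were tested, and all 5 differences were negative, with a median log2 difference of -1.20. Past the threshold, 3 fell and 0 rose. *Cyp1b1* had the largest difference, -2.72, but did not pass (adjusted p = 0.0726, limma). It was at 2.75, 7.45 and 4.92 FPKM in the knockout and 79.3, 65.2 and 9.05 FPKM in the controls. Its controls fell in the order of libraries 1, 2 and 3. *Ahr*, the receptor, was at 6.67, 5.95 and 7.23 FPKM in the knockout and 10.3, 17.0 and 16.2 FPKM in the controls (log2 difference -1.002, adjusted p = 0.0318, limma). *Nqo1*, a quinone reductase induced by the receptor, was at 2.19, 0.869 and 3.53 FPKM against 19.5, 17.9 and 17.6 FPKM (log2 difference -2.69, adjusted p = 0.00828, limma). *Ahrr*, the receptor's repressor, had 0.341, 0.155 and 0.910 FPKM against 1.66, 2.41 and 2.98 FPKM (log2 difference -1.20, adjusted p = 0.0284, limma; -2.30 with a pseudocount of 0.1 in place of 1). Without knockout library 1 or control library 2 none of the 3 was past the threshold, with adjusted p of 0.0521 to 0.128 (limma). *Ahr* and *Ahrr* were also lost without knockout library 2 (adjusted p = 0.149 and 0.122) or with no filter on low values (0.0585 and 0.0547), and *Ahr* without knockout library 3 (0.0589).

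Of the 7 other PARP family genes, all tested, 1 rose and 1 fell. *Parp3*, whose product acts with PARP1 in double-strand break repair, was at 11.8, 14.2 and 10.3 FPKM in the knockout and 5.15, 5.73 and 7.63 FPKM in the controls (log2 difference 0.87, SE 0.18, adjusted p = 0.0340, limma). *Parp16*, an enzyme of the endoplasmic reticulum membrane, was at 0.633, 0.543 and 0.885 FPKM against 2.10, 1.86 and 1.76 FPKM (log2 difference -0.79, SE 0.13, adjusted p = 0.0196, limma); at this level the pseudocount of 1 shrinks the difference, which was -1.37 with a pseudocount of 0.1. Neither group of values overlapped. *Parp4*, *Parp6*, *Tnks*, *Tnks2* and *Zc3hav1* did not pass, with log2 differences of -0.24 to 0.46. The *Parp3* call was lost without knockout library 1 (adjusted p = 0.127, limma), knockout library 2 (0.157), control library 1 (0.0545) or control library 2 (0.140), and with no filter on low values (0.0605). The *Parp16* call was lost without knockout library 1 (0.0956), knockout library 2 (0.108) or control library 2 (0.0986).

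The genes that act beside PARP1 at DNA breaks numbered 10, of which 9 were tested; 2 rose, *Parp3* and *Timeless*, and 0 fell. *Timeless*, a replication fork protein that binds PARP1, was at 6.05, 7.82 and 4.53 FPKM in the knockout and 2.56, 1.72 and 0.632 FPKM in the controls (log2 difference 1.48, SE 0.30, adjusted p = 0.0340, limma), and its controls fell in the order of libraries 1, 2 and 3. *Timeless* was not past the threshold without knockout library 1 (0.125), knockout library 2 (0.147) or control library 2 (0.132), with no filter on low values (0.0692) or with voom on the recovered reads (0.0543, log2 difference 2.22). The list's median was -0.14, near that of all genes. Of 13 genes that remove ADP-ribose or make and use NAD, 9 were tested and 0 passed in the limma fit, with 3 at an unadjusted p under 0.05 (*Cd38*, *Nampt* and *Macrod1*), a share near the 27.6% of all genes tested. *Cd38*, which encodes an NAD-consuming surface enzyme, had the widest difference, with 87.2, 84.9 and 110.4 FPKM in the knockout and 196.5, 246.1 and 123.8 FPKM in the controls (log2 difference -0.95, SE 0.26, adjusted p = 0.0673, limma). Without control library 3 the *Cd38* difference was past the threshold (-1.23, adjusted p = 0.00678, limma). *Parg*, whose product removes poly(ADP-ribose) chains, had a log2 difference of -0.18 (adjusted p = 0.357, limma).

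Of 12 factors that carry interferon signals, 11 were tested, 2 rose and 0 fell, with a median log2 difference of 0.28. Among the 11, 10 differences were positive, beside 3297 of 9030 over all genes tested. *Irf1*, a transcription factor induced by interferon-gamma, was at 187.1, 179.8 and 162.3 FPKM in the knockout and 75.3, 65.6 and 76.7 FPKM in the controls (log2 difference 1.27, SE 0.13, adjusted p = 0.00651, limma). Its controls did not follow the order of libraries seen in *Parp9* and *Parp12*. *Stat2*, whose product binds that of *Irf9* downstream of type I interferon, was at 98.8, 84.6 and 75.6 FPKM in the knockout (log2 difference 1.26, SE 0.27, adjusted p = 0.0383, limma). Its call was lost without any knockout library (0.0663 to 0.152) or without control library 2 (0.147), and under 3 other settings (0.0522 to 0.0695), while that of *Irf1* was lost without knockout library 1 (0.0521) or control library 2 (0.0549). *Ifnb1*, the gene for interferon-beta, was below the filter on low values, with 0.587, 0.831 and 1.14 FPKM in the knockout and 0.197, 0.200 and 0.215 FPKM in the controls. These values rest on 19, 27 and 36 reads against 6 reads in each control, and the groups did not overlap. With no filter *Ifnb1* was past the threshold (log2(FPKM + 1) difference 0.61, SE 0.11, adjusted p = 0.0464, limma).

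Marker sums of B cells, mast cells, large peritoneal macrophages and neutrophils were lower in every knockout than in every control library. Those of mesothelial cells and fibroblasts and of plasmacytoid dendritic cells overlapped between the groups. All 5 tested B-cell markers were lower in the knockout, with sums of 2.78 to 5.52 FPKM against 27.5 to 115.4 FPKM, and so were all 5 mast-cell markers (1.89 to 2.25 against 37.5 to 49.0 FPKM). Large peritoneal macrophage markers, with *Timd4* among them, summed to 3.46 to 8.46 against 35.1 to 155.4 FPKM, with 2 of 4 tested called lower. Neutrophil markers summed to 41.2 to 72.6 against 159.2 to 172.2 FPKM, with the defining genes *Ly6g*, *Mpo* and *Elane* not in the table. *S100a8* made most of both sums (mean 54.4 against 160.7 FPKM). *S100a9* (1.04 against 2.47 FPKM) did not pass the test, and *Camp* (0.589 against 1.45 FPKM) was called lower. T and NK cell markers were under 2 FPKM in sum in every library, plasmacytoid dendritic cell markers under 1 FPKM, and mesothelial and fibroblast markers were at 9.25 to 21.8 against 2.06 to 10.5 FPKM. In bulk RNA, fewer cells of a type and less RNA per cell cannot be told apart, and the part of these cells in the differences of *Parp14* and *Parp8* was not tested.

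**Figure D4:**
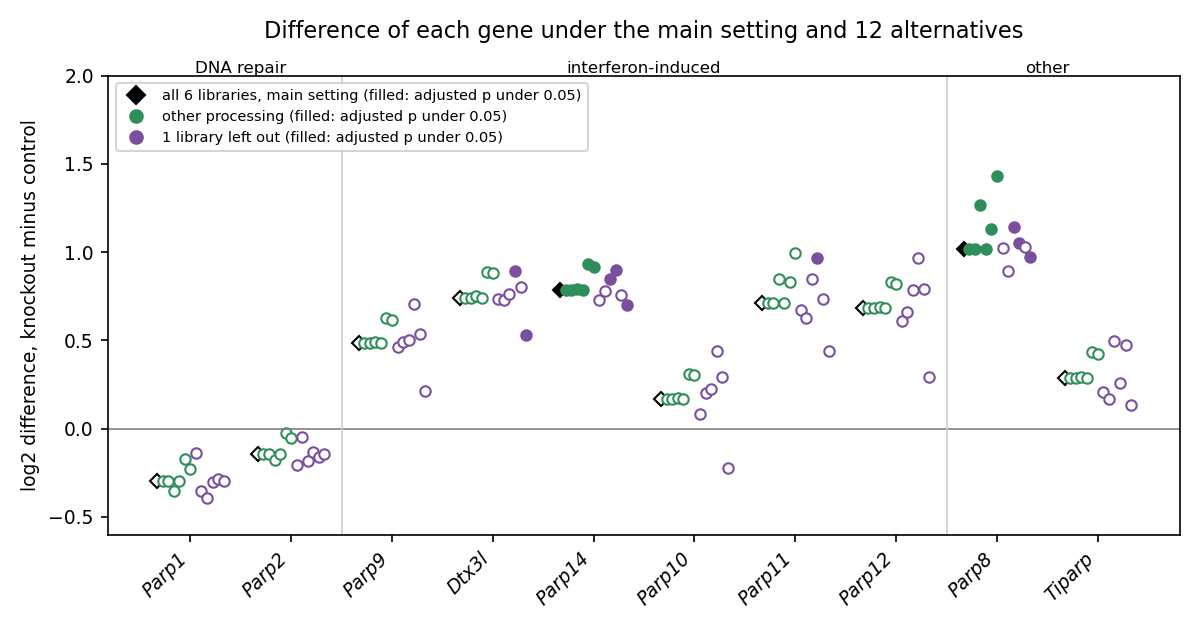
Log2 difference of each gene in the fit to all 6 libraries (diamonds) and under 12 alternatives, with other processing in green and 1 library left out in purple; filled symbols are past an adjusted p of 0.05. *Parp14* and *Parp8* stay above 0 throughout and are past the threshold in 9 of 12 alternatives each, while *Parp10* has 1 point below 0, the fit without control library 3.

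The genes whose log2(FPKM + 1) was most like *Parp14* over the 6 libraries were *Car13* (Pearson r = 0.994), *Rnf114* (0.994), *Cd274* (0.993), *Chmp4b* (0.992) and *Irf5* (0.991), and 261 of 5453 genes with a mean of at least 5 FPKM had r over 0.9. *Cd274*, which encodes the checkpoint ligand PD-L1, was at 631.5, 613.6 and 467.7 FPKM in the knockout and 318.7, 256.8 and 209.2 FPKM in the controls. For *Parp1* the closest were *Rpl35* (0.990), *Sfxn1* (0.980), *Cpsf3* (0.971), *Hint1* (0.966) and *Pgrmc2* (0.962), with 33 genes over 0.9. These 6 points fall into 2 groups and share the depth and composition of their libraries, so r is given as a description only.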

How the data were processed

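Total RNA (1.5 microgram per library) of peritoneal macrophages was sequenced, and the authors deposited 1 table of 15415 genes. It holds FPKM values per library, which the authors made from read counts scaled to gene length and library size, and mean signal per group, which by the column headers is the mean of counts normalised with DESeq2. The deposited fold change ratio, log2 fold change, p-value and q-value columns are the authors' own comparison and were not used. The submitters' processing notes name mm9; the aligner and the counter are not given in the sources used here, and 0 per-library columns were left out. FPKM and group means together gave whole reads for 100.0% of values (tolerance 0.05), and these reads gave the depths.

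Libraries were grouped by title. Genes with a mean of at least 1 FPKM in one group (9030) were fitted on log2(FPKM + 1) with limma 3.58.1 (lmFit, eBayes with a trend, two-sided, R 4.3.3), with Benjamini-Hochberg adjustment and a threshold of 0.05. The fit was tested on simulated data. Ranges and shares are from numpy 2.4.6 and pandas 2.3.3. The PARP genes and the lists (other PARP family genes, ADP-ribose and NAD genes, PARP1 partners, interferon factors, aryl hydrocarbon receptor genes, cell markers) were chosen with earlier results of these data known. All 10 PARP genes are named, with the 5 genes most like *Parp14* and *Parp1*. Each list but the cell markers gives its genes past the threshold or, if none, the one with the largest difference. Cell markers are given mostly as sums and counts. *Timd4* and *Lyz2* served as label checks. Others (*Irf7*, *Irf9*, *Ifnb1*, *Nampt*, *Macrod1*, *Parg*, *Cyp1b1*, *Cd274* in its values, and the markers given singly) were picked after their values were seen. Same-numbered libraries of the groups deviated together (correlations of 0.109, 0.110 and 0.304), all over 0.1, which was read as pairing although the labels give no shared mouse or day and knockout 2 correlated better with control 1 (0.291), so a fit with a replicate block was an alternative beside other filters, pseudocount 0.1, rescaling, voom on the recovered reads and each library left out.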

Additional observations from a re-analysis of the deposited data

How the results depend on the processing

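With the replicate block, 855 genes were past the threshold instead of 660, with the same 2 PARP genes among them, and the block changed no call among the 10 genes; of the other genes named, *Timd4* passed with it. Rescaling the libraries by the median of ratios moved the median difference of all genes from -0.11 to 0.02 and the share of higher calls from 35.2 to 51.5%, and voom on the recovered reads moved that share to 47.8%. In both, *Parp14* and *Parp8* were called and *Parp1* and *Parp2* were not. Leaving out 1 library at a time gave 8 to 1333 genes past the threshold and 0 to 4 of the 10 PARP genes, with 8 genes without control library 2, 30 without knockout library 1 and 63 without knockout library 2, where 0 PARP genes passed in the limma fit and 3 of 10 had an unadjusted p under 0.05 each time, beside 19.7, 18.02 and 15.9% of all genes tested in those fits. The ranges were 0 to 2 for the ADP-ribose and NAD genes, 0 to 4 for the aryl hydrocarbon receptor genes, and 0 to 2 each for the interferon factors, the other PARP family genes and the PARP1 partners. The ADP-ribose and NAD genes had 1 call with no filter, with at least 10 reads in every library and after rescaling, against 0 in the limma fit of all 6 libraries (3 at an unadjusted p under 0.05). With no filter, the aryl hydrocarbon receptor genes had 1 call in place of 3, the other PARP family genes 1 in place of 2 and the PARP1 partners 0 in place of 2. The PARP1 partners had 1 call with voom, and the interferon factors had 1 after rescaling and 1 with voom, in place of 2. The *Parp10* difference (0.17) ran from -0.23 without control library 3 to 0.44 without control library 1. The cause of these changes was not tested; each fit with a library left out has fewer samples. *Parp9*, *Dtx3l*, *Parp14*, *Parp11*, *Parp12*, *Parp8* and *Tiparp* stayed positive in 12 of 12 alternatives.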
